A study of Mus musculus with 28 samples.

Results

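The Frizzled family is the group of membrane receptors that bind secreted Wnt proteins. Its 10 mouse genes, Fzd1 to Fzd10, were taken by symbol from a table of 49492 gene symbols counted in 28 RNA sequencing libraries from the gastric corpus, where the acid-secreting glands lie. All 10 were in the table, and 9 had enough reads to be tested with 15812 genes in all. Fzd9, with 1 to 24 reads in each library, was not tested. The family was chosen by gene name with expression results of these data known, among them the 10-week fall of Fzd10, so that difference is described here with no test.

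In all, 6 groups of mice were compared, without cell sorting, in epithelial cells that had been scraped from the corpus by hand. Mice carrying the villin-PPARD transgene numbered 5 at 10 weeks of age, 4 at 25 weeks and 5 at 55 weeks, and their wild-type (WT) littermates numbered 5, 4 and 5 at those ages. PPARD, or peroxisome proliferator-activated receptor delta, is a lipid-activated nuclear receptor. The villin promoter is best known for driving genes in intestinal epithelium, and which corpus cells it drove here was not measured.

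When a Wnt protein binds a Frizzled receptor together with the co-receptor Lrp5 or Lrp6, beta-catenin escapes destruction and switches on target genes through TCF/LEF factors. Frizzled receptors also pass signals to planar cell polarity, which orients cells within a sheet. The amount of receptor on the surface is set in part by the ubiquitin ligases Rnf43 and Znrf3, which remove Frizzled proteins, and by R-spondins and Lgr receptors, which hold these ligases back. In the stomach, Wnt signals act on stem and progenitor cells of the glands. By sequence the receptors fall into 4 subfamilies, which are Fzd1, Fzd2 and Fzd7, then Fzd5 and Fzd8, then Fzd3 and Fzd6, and last Fzd4, Fzd9 and Fzd10.

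Sequencing depth ranged from 10982888 to 30891108 counts per library. Ppard was higher in villin-PPARD than in WT mice at each age by edgeR's quasi-likelihood test, by 0.56 ± 0.09 at 10 weeks, 0.31 ± 0.10 at 25 weeks and 0.23 ± 0.09 at 55 weeks on the log2 scale (± SE, Benjamini-Hochberg adjusted p = 2.55e-05, 0.0183 and 0.0307). The Ppard libraries of the genotypes did not overlap at 10 weeks but did at 25 and 55 weeks. At the 3 ages 34.0%, 39.6% and 59.3% of all genes differed. Column names carry a group tag that is shared by the 25-week libraries and replicates 1 to 3 of 10 weeks (the first library group), and another shared by all 55-week libraries and replicates 4 and 5 of 10 weeks (the second). WT replicate 3 of 25 weeks is tagged as a replacement. A change of level between 25 and 55 weeks therefore falls together with the library group. It can be separated from it only through the 10-week mice, which carry both tags in both genotypes. A change between 10 and 55 weeks is mixed with the library group in part. The genotype difference was taken within 1 library group at 55 weeks and, apart from the replacement library, at 25 weeks. WT replicates 2 and 3 of 10 weeks differed by a chi-square of 4.12 per degree of freedom, against at least 14.3 for every other pair within a group. Whether this pair came from separate mice is not given, and they are counted as such here. Without either of the pair, the 10-week differences of Fzd1 and Fzd5 given below stayed past the threshold.

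Every member is a protein-coding gene in GENCODE M21 on GRCm38, the build named mm10 in the submitters' processing notes. Fzd1 (ENSMUSG00000044674) lies on chromosome 5 at 4753839 to 4758035, on the minus strand. Fzd7 (ENSMUSG00000041075) lies on chromosome 1 at 59482424 to 59486955, on the plus strand. Fzd10 (ENSMUSG00000081683) lies on chromosome 5 at 128600844 to 128604093, on the plus strand. Of the members, 6 (Fzd1, Fzd2, Fzd7, Fzd8, Fzd9 and Fzd10) have 1 exon, Fzd4 and Fzd5 have 2, and Fzd3 and Fzd6 have 7. No stretch of 75 bases, the read length, was shared between an exon of Fzd1, Fzd2, Fzd3, Fzd4, Fzd7, Fzd8, Fzd9 or Fzd10 and any other annotated gene. Fzd5 shared 15.7% of its stretches with the antisense gene Gm38058 and Fzd6 shared 1.60% with the antisense gene Gm26704, and the libraries do not mark strand, so the levels of Fzd5 and Fzd6 are less certain.

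The promoter sequences of 2 members are shown because Fzd1 and Fzd7 were the members whose expression was about 4 times higher in villin-PPARD mice at 55 weeks. Each is the 250 bases before the RefSeq transcription start on GRCm38.p6, written 5′ to 3′ on the gene's strand. That of Fzd1 is chr5:4758217-4758466 on the minus strand and that of Fzd7 is chr1:59481897-59482146 on the plus strand. Neither window reaches the gene as GENCODE annotates it, since Fzd1 begins at 4758035 on its strand and Fzd7 at 59482424. The bases between were not searched. Capitals mark the TCF/LEF core TCAAAG in Fzd1 and the CCAAT box, read on either strand, in Fzd7.
Fzd1: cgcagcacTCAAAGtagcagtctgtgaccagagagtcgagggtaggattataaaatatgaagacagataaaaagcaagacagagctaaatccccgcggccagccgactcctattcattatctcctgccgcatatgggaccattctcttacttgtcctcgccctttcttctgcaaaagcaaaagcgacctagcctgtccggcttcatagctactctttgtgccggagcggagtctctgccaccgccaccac
Fzd7: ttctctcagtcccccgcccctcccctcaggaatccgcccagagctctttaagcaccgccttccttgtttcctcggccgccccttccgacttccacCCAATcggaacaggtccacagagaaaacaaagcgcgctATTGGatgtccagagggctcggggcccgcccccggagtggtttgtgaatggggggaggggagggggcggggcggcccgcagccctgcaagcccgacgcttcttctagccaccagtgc
The window of Fzd1 holds 51.2% G and C and that of Fzd7 holds 65.2%, against a median of 52.4% over 32851 windows of the same length. TCAAAG occurs at 1 position in the Fzd1 window, at -242 relative to the start, and in 13.8% of all windows when both strands are read. CCAAT occurs at 2 positions in the Fzd7 window and in 33.8% of all windows, and the GC box GGGCGG occurs at 6 positions in Fzd7 and in 32.7% of all windows. The Fzd1 window holds neither CCAAT nor GGGCGG, and the Fzd7 window holds no TCAAAG. Windows were also given for Fzd4, Fzd5, Fzd9 and Fzd10, but 250 of the 250 bases for Fzd10 and 183 for Fzd9 lie inside the gene as GENCODE annotates it, so these are not sequence upstream of that gene model. None of the 6 windows holds the direct repeat bound by PPAR with RXR, its single AGGTCA unit, which lies within the repeat, or the interferon-stimulated response element. These occur in 0.0335%, 14% and 2.98% of all windows. A match of letters is a description of the window only.

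Fzd5 and Fzd4 supplied most of the family's transcripts in every group. Levels between genes are given as CPM (counts scaled to a common library size) per kilobase of exon. Fzd5 averaged 49.7 ± 5.93 in villin-PPARD and 29.6 ± 4.59 in WT mice at 10 weeks (SD, n = 5 each), 41.4 ± 6.36 and 26.4 ± 2.70 at 25 weeks (n = 4 each), and 26.8 ± 5.76 and 25.3 ± 5.15 at 55 weeks (n = 5 each). Fzd4 came second in each group, at 29.4 ± 2.26 in villin-PPARD and 28.1 ± 2.33 CPM per kilobase in WT mice at 10 weeks. In villin-PPARD mice every library of a given age had more Fzd5 than any had Fzd4, while in WT mice the libraries of Fzd5 and Fzd4 overlapped at each age. Fzd6, Fzd1 and Fzd8 followed in that order in 5 of the 6 groups. The remaining members were lower, and most neighbours among them overlapped between libraries.

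The make-up of the family differed between the genotypes at 55 weeks, given first here, and also at the younger ages. Fzd1 held 13.003 ± 2.58% of the summed Frizzled level per kilobase in villin-PPARD mice and 3.10 ± 0.547% in WT mice, and ranked above Fzd6 in villin-PPARD mice. Fzd4 held 21.05 ± 1.19% in villin-PPARD and 37.5 ± 0.817% in WT mice. Fzd7 held 3.50 ± 0.526% in villin-PPARD and 0.793 ± 0.117% in WT mice. At 10 weeks Fzd5 held 56.9 ± 2.80% in villin-PPARD and 43.2 ± 4.33% in WT mice. Fzd4 then held 33.7 ± 2.13% and 41.1 ± 2.94%, and Fzd1 held 1.69 ± 0.205% and 3.36 ± 0.504%. At 25 weeks Fzd5 held 54.9 ± 3.34% in villin-PPARD and 44.8 ± 2.68% in WT mice. No libraries of the genotypes overlapped in these shares of the younger ages. The sum over the 10 genes was 50.9 ± 7.30 CPM per kilobase in villin-PPARD and 51.9 ± 8.63 in WT mice at 55 weeks, within the spread between mice. At 10 weeks the sum was 87.3 ± 7.32 in villin-PPARD and 68.3 ± 4.84 in WT mice, and no libraries overlapped, the lowest villin-PPARD library being at 76.8 and the highest WT library at 75.6. These shares are descriptions and were not tested.

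**Figure D1:**
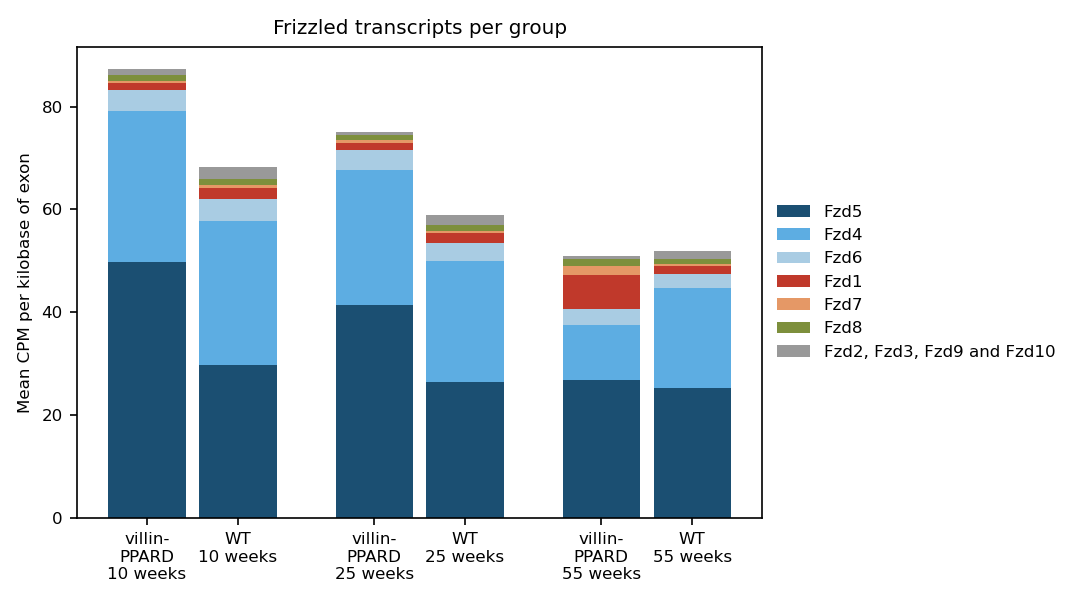
Mean CPM per kilobase of exon, stacked by Frizzled gene, for each group of villin-PPARD and WT mice at 10, 25 and 55 weeks. Fzd5 and Fzd4 make up most of each bar, and the Fzd1 band is widest in villin-PPARD mice at 55 weeks, at 6.51 CPM per kilobase.

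For one gene across groups, levels are given below as CPM, and a member is said to rise or fall where edgeR's adjusted p over all 15812 genes was under 0.05. By that rule 3 of 9 members differed between villin-PPARD and WT mice at 10 weeks, when 34.0% of all genes did. This count includes Fzd10, whose fall was known beforehand. At 25 weeks 5 of 9 differed, with 39.6% of all genes, and at 55 weeks 8 of 9, with 59.3% of all genes. The family's counts are thus to be read against broad differences across the transcriptome, and nothing is read from the 10-week count. At 55 weeks 4 members were higher, with 31.7% of all genes, and 4 lower, with 27.6%, and 7 had no overlap between the libraries of the genotypes, which held for 43.3% of all genes. The members' median log2 difference was 0.08, against 0.03 over all genes. With library size alone as the scaling the all-gene median was 0.43 at 55 weeks and 0.15 at 25 weeks, and calls that change with it are named beside each gene.

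**Figure D2:**
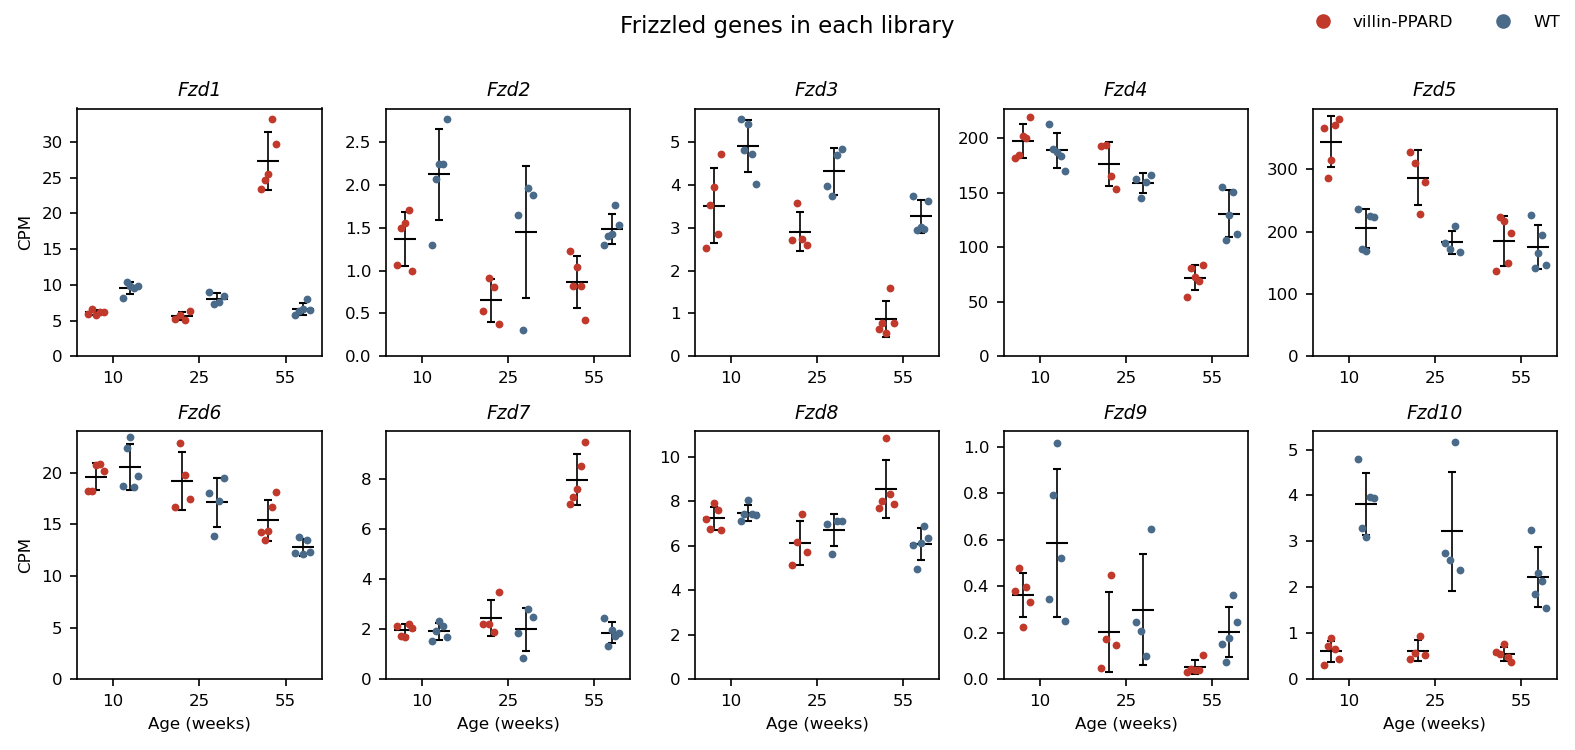
CPM of each Frizzled gene in each library (points) with the group mean and SD (bars), by age, villin-PPARD left of WT at each age. Fzd1 and Fzd7 stand apart in villin-PPARD mice at 55 weeks, and Fzd10 is low in villin-PPARD mice at all 3 ages.

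Fzd1, the first of the subfamily with Fzd2 and Fzd7, was lower in villin-PPARD than in WT mice at 10 and 25 weeks and higher at 55 weeks. At 10 weeks it had 5.86, 6.60, 5.84, 6.23 and 6.16 CPM in villin-PPARD mice, against 8.18, 10.4, 9.88, 9.48 and 9.83 CPM in WT mice. Every villin-PPARD library lay below every WT library. At 25 weeks it had 5.26, 5.82, 5.07 and 6.33 CPM in villin-PPARD mice, against 8.93, 7.29, 7.56 and 8.46 CPM in WT mice, again with no overlap. At 55 weeks it had 23.4, 24.6, 25.6, 33.3 and 29.8 CPM in villin-PPARD mice, against 5.70, 6.28, 6.59, 8.06 and 6.46 CPM in WT mice. The lowest villin-PPARD library was then well above the highest WT library. The log2 difference, villin-PPARD minus WT, was -0.64 ± 0.11 at 10 weeks, -0.53 ± 0.13 at 25 weeks and 2.04 ± 0.11 at 55 weeks (± SE, edgeR adjusted p = 5.28e-05, 0.00146 and 1.69e-15), the last a 4.12-fold difference. The change of that difference between ages was 2.68 ± 0.15 from 10 to 55 weeks and 2.57 ± 0.17 from 25 to 55 weeks (adjusted p = 2.52e-13 and 8.42e-12). Of all genes, 81 (0.512%) fell at both 10 and 25 weeks and rose at 55 weeks. Fits of the 10-week mice gave -0.65 for the first library group alone and -0.64 for the second alone.

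Fzd7, which acts in stem cells of the mouse intestine and in the mouse stomach, differed between the genotypes at 55 weeks alone among the ages tested. It had 7.01, 7.28, 7.62, 8.53 and 9.49 CPM in villin-PPARD mice at 55 weeks, against 2.45, 1.33, 1.96, 1.72 and 1.85 CPM in WT mice. The 2 genotypes did not overlap, and the difference was 2.09 ± 0.20 on the log2 scale, or 4.26-fold (edgeR adjusted p = 5.53e-10). At 10 weeks it averaged 1.96 ± 0.232 CPM in villin-PPARD and 1.91 ± 0.331 in WT mice (n = 5 each), and at 25 weeks 2.45 ± 0.715 in villin-PPARD and 1.99 ± 0.867 in WT mice (n = 4 each), with overlap at both ages (adjusted p = 0.938 and 0.493). The genotype difference grew by 2.06 ± 0.30 from 10 to 55 weeks and by 1.87 ± 0.32 from 25 to 55 weeks (adjusted p = 2.42e-06 and 4.17e-05).

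Fzd2, the remaining one of this subfamily, went the other way. At 55 weeks it had 1.22, 0.819, 1.04, 0.820 and 0.418 CPM in villin-PPARD mice, against 1.30, 1.40, 1.43, 1.77 and 1.54 CPM in WT mice. No libraries overlapped, though the highest villin-PPARD and lowest WT library were close. It was lower by 0.79 ± 0.31 on the log2 scale, but the call was lost with library size alone (adjusted p = 0.0270, against 0.290). It was also lost without villin-PPARD replicate 5 and without WT replicate 4 of 55 weeks (adjusted p = 0.0888 and 0.0683). At 25 weeks the log2 difference was -1.19 ± 0.37 (adjusted p = 0.0110), with 0.526, 0.913, 0.808 and 0.372 CPM in villin-PPARD mice against 1.65, 0.313, 1.96 and 1.89 CPM in WT mice. The WT library at 0.313 CPM, replicate 2, was the shallowest of the series and lay below every villin-PPARD library. Without it the difference was -1.45, and with only the 25-week libraries in the fit the adjusted p was 0.0501. At 10 weeks Fzd2 averaged 1.37 ± 0.317 CPM in villin-PPARD and 2.13 ± 0.532 in WT mice (adjusted p = 0.109).

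Fzd5, the most abundant member, is required in the mouse intestine for Paneth cells to mature. It rose at 10 weeks, to 366, 286, 315, 371 and 381 CPM in villin-PPARD mice, against 236, 172, 169, 225 and 223 CPM in WT mice. At 25 weeks it had 328, 309, 227 and 279 CPM in villin-PPARD mice, against 182, 171, 209 and 168 CPM in WT mice. The libraries of the genotypes did not overlap at either age. The log2 difference was 0.75 ± 0.14 at 10 weeks and 0.65 ± 0.16 at 25 weeks (edgeR adjusted p = 2.18e-04 and 0.00229). At 55 weeks it had 136, 223, 218, 150 and 198 CPM in villin-PPARD mice, against 227, 142, 166, 194 and 146 CPM in WT mice. The libraries overlapped and the log2 difference was 0.08 ± 0.14 (adjusted p = 0.654), though 0.46 (adjusted p = 0.00267) with library size alone. From 10 to 55 weeks the genotype difference fell by 0.67 ± 0.20 (adjusted p = 0.0106), which missed the threshold with library size alone (adjusted p = 0.154) and without replicates 4 and 5 of 10 weeks (adjusted p = 0.0506). From 25 to 55 weeks it fell by 0.57 ± 0.22 (adjusted p = 0.0481), but by 0.34 with library size alone (adjusted p = 0.192). That fall also missed the threshold with no low-count filter, without replicates 4 and 5 of 10 weeks and with only the groups compared (adjusted p = 0.0597, 0.0661 and 0.0702). The call was also lost (adjusted p up to 0.111) without any 1 of villin-PPARD replicates 1, 4 and 5 and WT replicates 4 and 5 of 10 weeks, replicates 1, 2 and 4 of either genotype at 25 weeks, villin-PPARD replicates 1 and 4 and WT replicates 1, 3 and 4 of 55 weeks. Its antisense partner Gm38058 had at most 40 reads in a library, against at least 1644 for Fzd5, and was itself higher in villin-PPARD mice at 10 weeks (log2 difference 1.66, adjusted p = 0.0156). At the younger ages, when 34.0% and 39.6% of all genes differed, epithelial markers were higher too, 4 of 5 at both. The 5 markers were Epcam, Cdh1, Krt8, Krt18 and Krt19. Their summed level was 14280 ± 1485 CPM (12338 to 16405) in villin-PPARD and 9771 ± 1546 (8151 to 11715) in WT mice at 10 weeks, and 14137 ± 1662 (11755 to 15607) in villin-PPARD and 10150 ± 1332 (8792 to 11982) in WT mice at 25 weeks, with none at 0. At 55 weeks, when Fzd5 did not pass the test, 3 of 5 were higher and 0 lower, against 31.7% and 27.6% of all genes. The markers then summed to 12062 ± 2247 CPM (9196 to 14324) in villin-PPARD and 10754 ± 1234 (9685 to 12264) in WT mice. Their part in the difference of Fzd5 was not tested.

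Fzd8, the closest relative of Fzd5, rose at 55 weeks by 0.49 ± 0.12 on the log2 scale (edgeR adjusted p = 6.08e-04). It had 7.72, 8.004, 10.9, 8.34 and 7.87 CPM in villin-PPARD mice, against 6.06, 4.95, 6.15, 6.88 and 6.34 CPM in WT mice. The genotypes did not overlap, and without the highest villin-PPARD library, replicate 3, the difference was 0.38 (adjusted p = 0.00566). At 10 and 25 weeks it was -0.05 ± 0.12 and -0.14 ± 0.13 (adjusted p = 0.788 and 0.419), and at 25 weeks the sign turned with library size alone (0.025). The genotype difference rose by 0.53 ± 0.16 from 10 to 55 weeks and by 0.63 ± 0.18 from 25 to 55 weeks (adjusted p = 0.0107 and 0.00770).

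Fzd3, known in mice for axon guidance and planar polarity, was lower at 55 weeks. It had 0.627, 0.773, 0.539, 1.60 and 0.784 CPM in villin-PPARD mice, against 3.75, 2.96, 3.03, 2.99 and 3.63 CPM in WT mice, with no overlap. The log2 difference was -1.93 ± 0.22, so that Fzd3 was 3.80-fold lower (edgeR adjusted p = 1.05e-08). At 25 weeks it had 2.72, 3.59, 2.74 and 2.61 CPM in villin-PPARD mice, against 3.98, 3.75, 4.71 and 4.85 CPM in WT mice. The difference of -0.58 ± 0.22 (adjusted p = 0.0413) missed the threshold without villin-PPARD replicate 1, 3 or 4 or WT replicate 3 or 4 of 25 weeks (adjusted p = 0.0632 to 0.109), and with library size alone (adjusted p = 0.172). It also missed it with a library group term, with no low-count filter, with a replicate block and without replicates 4 and 5 of 10 weeks (adjusted p = 0.0981, 0.0827, 0.0611 and 0.05004). At 10 weeks it averaged 3.52 ± 0.882 CPM in villin-PPARD and 4.91 ± 0.607 in WT mice, a difference of -0.49 ± 0.19 (adjusted p = 0.0529), which DESeq2 and limma-voom put past the threshold (adjusted p = 0.0246 and 0.00456). The genotype difference fell by 1.44 ± 0.29 from 10 to 55 weeks and by 1.35 ± 0.31 from 25 to 55 weeks (adjusted p = 2.46e-04 and 0.00154).

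Fzd6, which with Fzd3 orients hairs and hair cells in mice, moved little. At 55 weeks it had 14.3, 13.5, 14.4, 16.7 and 18.2 CPM in villin-PPARD mice, against 12.2, 13.8, 12.1, 13.5 and 12.3 CPM in WT mice. The libraries overlapped. The rise of 0.27 ± 0.10 on the log2 scale (edgeR adjusted p = 0.0288) was lost without villin-PPARD replicate 4 or 5 or WT replicate 1, 3 or 5 of 55 weeks (adjusted p = 0.0586 to 0.151). It was also lost by DESeq2 and with only the groups compared in the fit (adjusted p = 0.0505 and 0.0629). At 10 and 25 weeks the differences were -0.07 ± 0.10 and 0.15 ± 0.12 (adjusted p = 0.645 and 0.300).

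Fzd4, the receptor of Norrin in the vessels of the mouse retina, fell at 55 weeks. It had 54.3, 80.9, 72.2, 69.0 and 83.9 CPM in villin-PPARD mice, against 155, 107, 129, 150 and 112 CPM in WT mice. No libraries overlapped, and the log2 difference was -0.86 ± 0.11, or 1.82-fold lower (edgeR adjusted p = 1.12e-07). At 10 and 25 weeks it was 0.06 ± 0.11 and 0.15 ± 0.12 (adjusted p = 0.688 and 0.335), and the 25-week value was 0.31 (adjusted p = 0.0401) with library size alone. The genotype difference fell by 0.93 ± 0.16 from 10 to 55 weeks and by 1.01 ± 0.17 from 25 to 55 weeks (adjusted p = 2.43e-05 and 2.73e-05). Endothelial markers summed to 29.3 CPM (21.8 to 35.5) in villin-PPARD and 30.7 CPM (25.0 to 42.4) in WT mice at 55 weeks, with 1 of 6 higher, 3 lower and none at 0. Of all genes 31.7% were higher and 27.6% lower then. The part of these markers in the fall of Fzd4 was not tested.

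Fzd10, found raised in human colorectal tumors and synovial sarcoma, was low in villin-PPARD mice at every age. At 10 weeks it had 0.315, 0.720, 0.891, 0.659 and 0.440 CPM in villin-PPARD mice (5 to 20 reads a library), against 4.80, 3.29, 3.10, 3.96 and 3.95 CPM in WT mice (47 to 111 reads). The genotypes were far apart, and the log2 difference was -2.62 ± 0.28, or 6.14-fold lower, with -2.49 and -2.81 within the first and second library group. At 25 weeks it had 0.430, 0.570, 0.943 and 0.521 CPM in villin-PPARD mice, against 2.75, 2.60, 5.15 and 2.37 CPM in WT mice. The WT library at 5.15 CPM is the replacement library. The log2 difference was -2.37 ± 0.32 (edgeR adjusted p = 1.29e-06) with it and -2.03 (adjusted p = 1.91e-05) without it. At 55 weeks it had 0.598, 0.546, 0.770, 0.484 and 0.366 CPM in villin-PPARD mice, against 3.25, 1.85, 2.32, 2.13 and 1.54 CPM in WT mice. The difference was -2.02 ± 0.28 (adjusted p = 3.29e-07), 4.04-fold lower, with no overlap. The change of its genotype difference from 25 to 55 weeks was 0.35 ± 0.43 (adjusted p = 0.573).

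Fzd9, the remaining member, stayed near the limit of counting. It averaged 0.361 ± 0.0944 CPM in villin-PPARD and 0.587 ± 0.318 in WT mice at 10 weeks, 0.204 ± 0.172 in villin-PPARD and 0.299 ± 0.240 in WT mice at 25 weeks, and 0.0508 ± 0.0306 in villin-PPARD and 0.202 ± 0.109 in WT mice at 55 weeks (SD, n = 5, 4 and 5 per genotype). Libraries overlapped at each age. At 55 weeks it had 1 to 4 reads in villin-PPARD and 1 to 8 reads in WT libraries, and having failed the filter on low counts it was not tested. In villin-PPARD mice every 55-week library lay below every 10-week library.

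**Figure D3:**
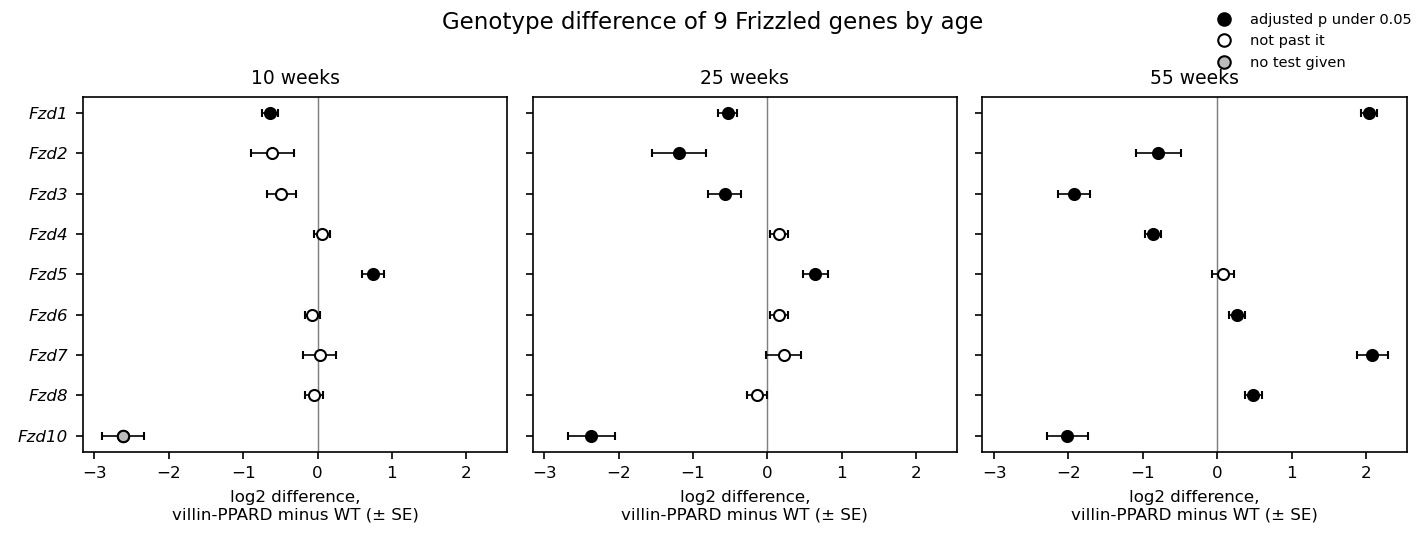
Log2 difference of the 9 Frizzled genes with enough reads, villin-PPARD minus WT, with its SE, at 10, 25 and 55 weeks. Filled points had an adjusted p under 0.05 and open points did not, and the grey point is the 10-week value of Fzd10, for which no test is given. Fzd1 lies at -0.64, -0.53 and 2.04 at the 3 ages, and Fzd10 lies between -2.62 and -2.02.

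Levels also differed with age in both genotypes. In villin-PPARD mice 6 of 9 members differed between 55 and 10 weeks, when 51.7% of all genes did, and in WT mice 5 of 9, all lower at 55 weeks, when 6.26% of all genes were lower. In villin-PPARD mice Fzd1 and Fzd7 rose with age by 2.15 ± 0.11 and 2.02 ± 0.20 on the log2 scale (edgeR adjusted p = 9.21e-16 and 8.31e-10). Fzd3 fell by 2.03 ± 0.22, Fzd4 fell by 1.45 ± 0.11 and Fzd5 fell by 0.89 ± 0.14 (adjusted p = 3.59e-09, 5.50e-12 and 5.38e-06). Fzd6 fell by 0.35 ± 0.10 (adjusted p = 0.00482), a direction that turned with library size alone (0.068). This call was lost without replicates 4 and 5 of 10 weeks (adjusted p = 0.0541). In WT mice Fzd1 fell by 0.52 ± 0.11, Fzd4 fell by 0.53 ± 0.11 and Fzd6 fell by 0.69 ± 0.11 (adjusted p = 0.00253, 0.00249 and 1.30e-04). Fzd3 fell by 0.59 ± 0.20 and Fzd10 fell by 0.77 ± 0.25 (adjusted p = 0.0468 and 0.0362), and both calls were lost with a term for library group (adjusted p = 0.188 and 0.109) and with library size alone (adjusted p = 0.101 and 0.0670). The Fzd10 comparison shares its 10-week WT libraries with the fall known beforehand. For Fzd3 the call was also lost (adjusted p up to 0.106) without any 1 of WT replicates 1 to 4 of 10 weeks, replicates 2 to 5 of 55 weeks, replicate 3 of 25 weeks, or villin-PPARD replicate 2 of 10 weeks or 1 of 25 weeks. For Fzd10 it was lost (adjusted p up to 0.104) without any 1 of WT replicates 1, 4 and 5 of 10 weeks or 2 to 5 of 55 weeks. The Fzd3 call was lost with no low-count filter too (adjusted p = 0.0685), and the Fzd10 call without both replicates 4 and 5 of 10 weeks (adjusted p = 0.0866). Between 25 and 10 weeks edgeR called 0 of 9 members in either genotype, when it called 2.81% of all genes in villin-PPARD and 0.0126% in WT mice. At an unadjusted p under 0.05, 1 member (Fzd2) differed in villin-PPARD mice and 3 (Fzd1, Fzd4 and Fzd6) in WT mice. DESeq2 and limma-voom called 1 and 2 members in villin-PPARD mice and 0 in WT mice.

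The genotype difference itself changed for 6 of 9 members from 10 to 55 weeks, when it did for 36.4% of all genes. From 25 to 55 weeks it changed for 6, when it did for 28.9%, and all 6 were called in both. These comparisons share the 55-week libraries. Fzd1, Fzd7 and Fzd8 gained and Fzd3, Fzd4 and Fzd5 lost relative to WT mice. From 10 to 25 weeks edgeR called 0 of 9, with 0.00632% of all genes, 0 members at an unadjusted p under 0.05 and 0 by DESeq2 or limma-voom.

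In scraped tissue, fewer cells of a type and less RNA per cell cannot be told apart, and markers of several cell types moved with the genotype. Over all genes 34.0%, 39.6% and 59.3% differed at 10, 25 and 55 weeks, and the marker counts are to be read against these shares. At 55 weeks the parietal markers summed to 439 CPM (307 to 619) in villin-PPARD and 7581 CPM (5538 to 9635) in WT mice, 5 of 6 being lower. The chief cell markers summed to 772 CPM (308 to 1323) in villin-PPARD and 64841 CPM (23382 to 87232) in WT mice, 5 of 5 being lower. The leukocyte markers summed to 99.9 CPM (63.3 to 138) in villin-PPARD and 36.1 CPM (34.0 to 40.8) in WT mice, 5 of 5 tested being higher. The markers of squamous forestomach epithelium summed to 66.2 CPM (46.9 to 88.1) in villin-PPARD and 11.01 CPM (7.06 to 16.8) in WT mice, 3 of 5 tested being higher and 1 lower. Fibroblast markers summed to 468 CPM (368 to 637) in villin-PPARD and 463 CPM (411 to 508) in WT mice, 0 of 6 being higher and 1 lower. At 10 weeks the parietal markers summed to 9594 CPM (8524 to 10691) in villin-PPARD and 15701 CPM (14403 to 16821) in WT mice, 6 of 6 being lower. The chief cell markers then summed to 61240 CPM (53658 to 72537) in villin-PPARD and 119808 CPM (71809 to 146384) in WT mice, 3 of 5 being lower. At 25 weeks the parietal markers summed to 6536 CPM (3937 to 9210) in villin-PPARD and 13297 CPM (10948 to 17307) in WT mice, 5 of 6 being lower. The chief cell markers summed to 34678 CPM (16495 to 60418) in villin-PPARD and 104959 CPM (81268 to 144096) in WT mice at 25 weeks, 3 of 5 being lower. Of the endocrine markers 3, 4 and 6 of 6 were lower at 10, 25 and 55 weeks. Their sum at 55 weeks was 74.4 CPM (39.8 to 137) in villin-PPARD and 1071 CPM (679.7 to 1332) in WT mice. Surface pit cell markers summed to 50966 CPM (33925 to 68440) in villin-PPARD and 166660 CPM (134936 to 187932) in WT mice at 55 weeks, 4 of 4 being lower. Red blood cell markers were lower at each age too, with 2, 3 and 3 of 3 tested lower at 10, 25 and 55 weeks. They summed to 26.0 CPM (19.2 to 35.9) in villin-PPARD and 49.4 CPM (36.8 to 66.9) in WT mice at 10 weeks, 18.5 CPM (9.83 to 28.5) in villin-PPARD and 62.6 CPM (33.9 to 102.6) in WT mice at 25 weeks, and 14.5 CPM (9.51 to 21.8) in villin-PPARD and 89.4 CPM (39.5 to 150.3) in WT mice at 55 weeks. None of these markers was at 0 in the groups named. Their part in the differences of Fzd1, Fzd3, Fzd4, Fzd7, Fzd8 and Fzd10 was not tested.

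Beside Fzd10 lies 5930412G12Rik, a long non-coding RNA gene that starts 150 bases away and runs the other way on the minus strand (chromosome 5, 128579106 to 128600693). The exons of the pair share no stretch of 75 bases. It had 0 to 3 reads a library in villin-PPARD mice at 10 weeks, against 7 to 29 reads in WT mice. At 25 weeks it had 0 or 1 read in villin-PPARD mice, against 8 to 18 in WT mice, and at 55 weeks 0 to 2 in villin-PPARD mice, against 3 to 13 in WT mice. No libraries of the genotypes overlapped at any age. It averaged 0.0705 ± 0.0556 CPM in villin-PPARD and 0.739 ± 0.320 CPM in WT mice at 10 weeks. Likeness was taken over the 6 group means of log2 CPM, centred, with a small count added that draws values near 0 together. By this measure 5930412G12Rik was the second nearest of all tested genes to Fzd10, with a root-mean-square difference of 0.25. It came after 4930438A08Rik (0.17) and before Gm10222 (0.27). The fitted log2 differences of 5930412G12Rik, villin-PPARD minus WT, were -3.26, -5.27 and -4.28 at 10, 25 and 55 weeks. Those of Fzd10 were smaller, at -2.62, -2.37 and -2.02. For Fzd3 the nearest were Rph3al (0.06), Lonrf1 (0.07) and Grip1 (0.09), and for Fzd1 they were Fam117b (0.09), Pglyrp1 (0.14) and Acat3 (0.15). Grip1 was also near 0 in villin-PPARD mice at 55 weeks, at 0.0245 CPM, so the added count affects its distance too. Likeness over 6 means from the same 28 libraries is a description.

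**Figure D4:**
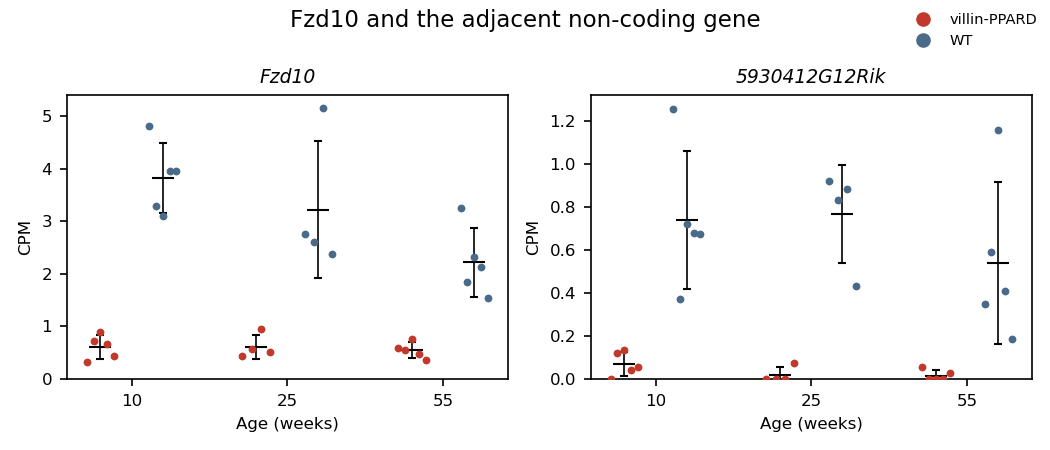
CPM of Fzd10 and of the adjacent gene 5930412G12Rik in each library (points) with the group mean and SD (bars), by age, villin-PPARD left of WT. In both panels every villin-PPARD library lies below every WT library of its age.

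Wnt proteins are the ligands of Frizzled receptors. Of 19 Wnt genes, 7 had enough reads, and at 55 weeks 3 were higher and 2 lower in villin-PPARD mice. Over all genes 31.7% were higher and 27.6% lower at that age, and the counts of each list below are to be read against those shares. Wnt4, a ligand active in kidney and reproductive tract development, averaged 59.6 ± 4.32 CPM in villin-PPARD and 18.2 ± 1.84 in WT mice (SD, n = 5 each, edgeR adjusted p = 4.16e-11). Wnt11, a ligand of cell movement, averaged 91.4 ± 13.98 CPM in villin-PPARD and 41.4 ± 6.89 in WT mice (adjusted p = 1.28e-06). Wnt7b averaged 0.717 ± 0.221 CPM in villin-PPARD and 0.0271 ± 0.0374 in WT mice (adjusted p = 6.74e-06). These WT libraries were too low to bring Wnt7b past the low-count filter, which only libraries with more of it could do. Its test, and its place among the 3 higher ligands, are therefore descriptions. Wnt9a averaged 0.348 ± 0.0454 CPM in villin-PPARD and 1.42 ± 0.260 in WT mice (adjusted p = 5.11e-09). Wnt9a was also lower at 10 and 25 weeks, by -0.81 ± 0.19 and -1.53 ± 0.23 on the log2 scale (adjusted p = 0.00142 and 5.88e-06). At those ages 1 and 2 of 7 ligands were higher and 1 and 2 lower, when 34.0% and 39.6% of all genes differed in either direction. The 10-week and 25-week counts of each list below are to be read against these shares. Porcn, which acylates Wnt proteins, fell by 0.88 ± 0.16 at 25 weeks and rose by 0.84 ± 0.14 at 55 weeks (adjusted p = 1.05e-04 and 6.18e-06). Wls, which exports them, fell by 0.28 ± 0.08 at 10 weeks and rose by 0.20 ± 0.08 at 55 weeks (adjusted p = 0.00575 and 0.0282).

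Among 6 co-receptors and alternative receptors, all tested, 2 rose and 0 fell at 55 weeks. These were Lrp5, which partners Frizzled receptors, at 0.81 ± 0.11 on the log2 scale, and Ptk7, a planar polarity receptor, at 0.75 ± 0.12 (edgeR adjusted p = 2.64e-07 and 5.84e-06). At 10 weeks 1 rose (Lrp5, 0.35 ± 0.11) and 1 fell (Ryk, -0.29 ± 0.09), and at 25 weeks 0 rose and 1 fell (Ror1, -1.90 ± 0.49). Of 4 cofactors of Norrin and Wnt7 signaling 3 were tested, and Tspan12, a partner of Fzd4, rose to 14.7 ± 3.58 CPM in villin-PPARD mice, against 3.21 ± 0.507 CPM in WT mice at 55 weeks (adjusted p = 2.41e-11). It had been lower at 10 weeks, at -0.53 ± 0.19 (adjusted p = 0.0300), and 0 of 3 were called at 25 weeks. Of 9 R-spondins, Lgr receptors and ligases 5 were tested. At 55 weeks 1 rose, Rnf43 at 0.68 ± 0.09 (adjusted p = 6.15e-08), and 2 fell. Lgr5, a stem cell marker, averaged 0.406 ± 0.243 CPM in villin-PPARD and 6.03 ± 1.30 CPM in WT mice, and Rspo4 averaged 0.0339 ± 0.0466 CPM in villin-PPARD and 0.430 ± 0.148 CPM in WT mice (adjusted p = 1.55e-10 and 3.40e-06). The level of Rspo4 was low in both genotypes and near 0 in villin-PPARD mice. Lgr4 rose by 0.50 ± 0.14 at 10 weeks and by 0.61 ± 0.16 at 25 weeks (adjusted p = 0.00587 and 0.00270), the 1 member called at each of those ages.

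Secreted antagonists keep Wnt proteins or Lrp co-receptors from acting. Of 16 antagonists and Dkk co-receptors 8 were tested. At 55 weeks 2 were higher and 3 lower, when 31.7% and 27.6% of all genes were. At 10 and 25 weeks 3 of 8 differed each time, 1 and 0 of them higher, when 34.0% and 39.6% of all genes differed. Sostdc1 averaged 2.29 ± 0.595 CPM in villin-PPARD and 6.19 ± 1.32 in WT mice at 10 weeks, 1.74 ± 1.41 in villin-PPARD and 5.34 ± 2.72 in WT mice at 25 weeks, and 0.0293 ± 0.0277 in villin-PPARD and 3.11 ± 1.59 in WT mice at 55 weeks (edgeR adjusted p = 0.00667, 0.00783 and 1.23e-08). Sfrp5 averaged 0.635 ± 0.277 CPM in villin-PPARD and 1.49 ± 0.385 in WT mice at 10 weeks, and 0.0428 ± 0.0589 in villin-PPARD and 0.783 ± 0.355 in WT mice at 55 weeks (adjusted p = 0.0140 and 3.98e-07). Sfrp1 fell by 1.55 ± 0.29 and Kremen1, a Dkk co-receptor, rose by 0.40 ± 0.12 on the log2 scale at 55 weeks (adjusted p = 5.02e-05 and 0.00423).

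**Figure D5:**
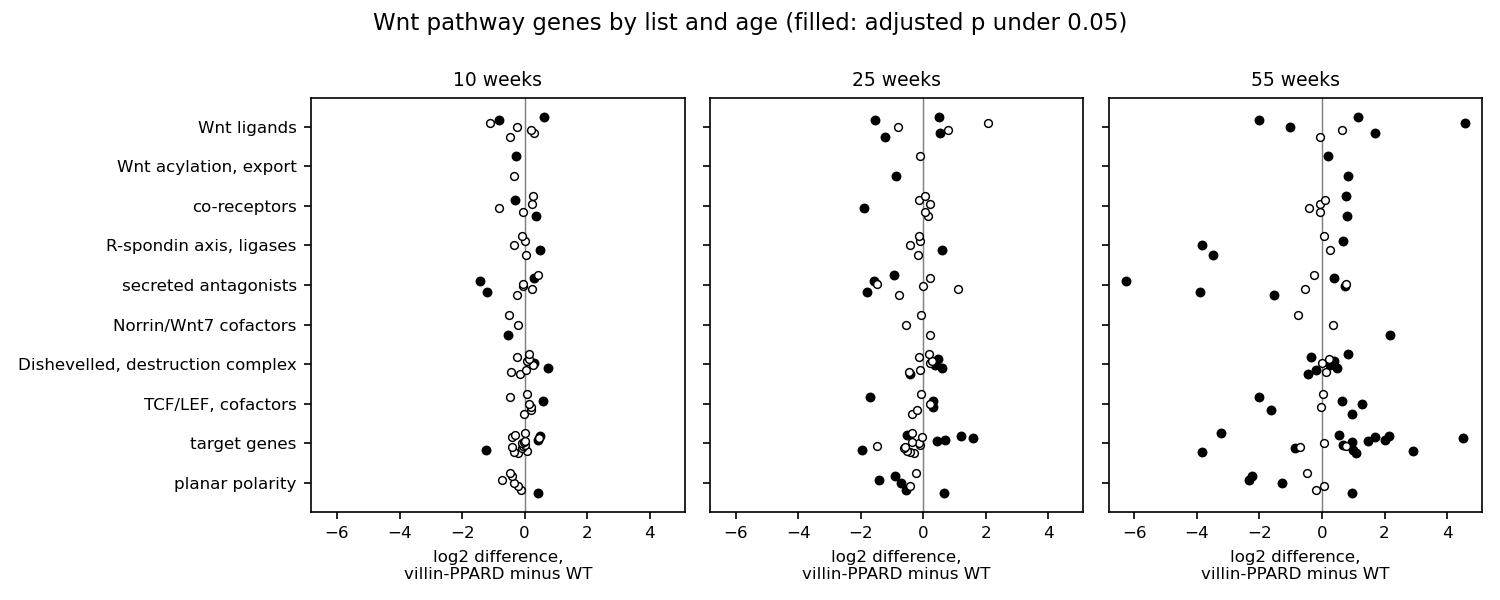
Log2 difference, villin-PPARD minus WT, of each tested gene of 10 Wnt pathway lists (rows) at 10, 25 and 55 weeks. Filled points had an adjusted p under 0.05. Target genes lie mostly to the right at 55 weeks, 11 of 17 being higher and 3 lower.

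Downstream of the receptors, 4 of 10 genes of Dishevelled and the destruction complex were higher and 3 lower at 55 weeks. Beta-catenin itself, Ctnnb1, rose by 0.84 ± 0.12 and Axin1, a scaffold of the destruction complex, by 0.47 ± 0.11, while Dvl1 fell by 0.44 ± 0.12 (edgeR adjusted p = 3.90e-07, 6.95e-04 and 0.00161). Axin1 had also risen at 10 and 25 weeks, by 0.73 ± 0.11 and 0.60 ± 0.13 (adjusted p = 1.22e-05 and 5.32e-04), when 2 and 3 of 10 were higher and 0 and 1 lower. Of 7 tested TCF/LEF factors and cofactors 3 were higher and 2 lower at 55 weeks. Bcl9, a cofactor of beta-catenin, rose by 1.28 ± 0.11 and Tcf7l1, a TCF factor often acting as a repressor, fell by 1.62 ± 0.15 (adjusted p = 7.78e-11 and 1.19e-10). At 10 and 25 weeks 1 and 2 were higher and 0 and 1 lower, Bcl9l being higher at both, by 0.59 ± 0.09 and 0.30 ± 0.10 (adjusted p = 1.28e-05 and 0.0219).

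Of 17 tested target genes of Wnt and beta-catenin 11 were higher and 3 lower at 55 weeks, when 31.7% of all genes were higher and 27.6% lower. Their median log2 difference was 0.97, against 0.03 over all genes. Cd44, an adhesion receptor, averaged 230.4 ± 39.3 CPM in villin-PPARD and 10.2 ± 0.759 CPM in WT mice, and Myc, a growth factor-induced transcription factor, averaged 78.3 ± 7.40 CPM in villin-PPARD and 19.6 ± 3.11 CPM in WT mice (edgeR adjusted p = 1.14e-14 and 6.24e-14). Ccnd1, a cyclin, averaged 145 ± 16.9 CPM in villin-PPARD and 51.7 ± 7.78 CPM in WT mice (adjusted p = 2.93e-12). Tnfrsf19, a stem cell marker, averaged 0.610 ± 0.353 CPM in villin-PPARD and 5.54 ± 1.05 CPM in WT mice (adjusted p = 6.72e-11). Lgr5 (lower) and Rnf43 (higher), given above, are also on this list and count in both lists. Znrf3, Tcf7, Lef1 and Notum likewise stand on this list and on another. At 10 weeks 2 of 17 were higher and 1 lower, when 34.0% of all genes differed, and the median was -0.07, against -0.03 over all genes. At 25 weeks 4 were higher and 2 lower, when 39.6% of all genes differed, and the median was -0.35, against -0.01 over all genes. Sp5 was lower at both ages, at -1.22 ± 0.36 and -1.95 ± 0.47 on the log2 scale (edgeR adjusted p = 0.0104 and 0.00156). The leukocyte and squamous markers given above moved with the targets at 55 weeks, and their part was not tested.

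Planar polarity genes, which work with Fzd3 and Fzd6, gave 1 of 7 higher and 3 lower at 55 weeks, 1 higher and 4 lower at 25 weeks, and 1 higher and 0 lower at 10 weeks. Vangl1, a core membrane protein, was the higher one each time, at 0.41 ± 0.10, 0.68 ± 0.11 and 0.97 ± 0.10 at 10, 25 and 55 weeks (edgeR adjusted p = 0.00165, 2.61e-05 and 7.82e-10). At 55 weeks Prickle1, a cytoplasmic core protein, fell by 2.23 ± 0.23, and the cadherins Celsr2 and Celsr3 fell by 1.29 ± 0.18 and 2.32 ± 0.38 (adjusted p = 2.07e-09, 3.24e-07 and 5.59e-06). The pathway lists were drawn up with earlier results of these data known, so their counts are descriptions.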

How the data were processed

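Polyadenylated RNA was sequenced in 1 library per mouse, 28 in all, with a kit that does not mark strand. The deposited values are raw read counts per gene symbol, and the submitters' processing notes name TopHat2 (2.0.14), DESeq2 with no version, HTSeq (0.6.1) and mm10 as the authors' tools and build. Neither these notes nor the labels say which annotation or strand option HTSeq used. Genes were filtered by group with filterByExpr (15812 of 49492 kept), scaled with TMM and tested with edgeR (4.0.16, R 4.3.3) in the two-sided quasi-likelihood F test, in 1 fit of 28 libraries with a mean for each group. All 10 comparisons used Benjamini-Hochberg adjustment over all tested genes and a threshold of 0.05. Standard errors were taken from the log2 difference and its F (absolute difference over root F). CPM is the count scaled by TMM library size. Depth sets the precision of low members, and reads carry no molecular identifiers. The fit was checked on simulated data.

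The members and gene lists were chosen with earlier results of these data known. Genes named are the 10 members, up to 4 per pathway list with the lowest adjusted p, and the 3 genes nearest in group means to each of the 3 members of widest range. 5930412G12Rik was described further after its values were seen. Groups come from the labelled genotype and age. Same-numbered mice were not treated as pairs. The labels do not say how same-numbered mice are related, and p-values measure the spread between these mice. Promoter sequences are from RefSeq (GRCm38.p6), with a window for 6 of 10 members. Sequences of members on chromosome 18 are not printed. Alternatives were Wald tests in DESeq2 (1.42.0), limma-voom (limma 3.58.1), a replicate block, scaling by library size alone or by DESeq2 size factors, fits with just the compared groups, no low-count filter, a library group term, 10 weeks without replicates 4 and 5, per-kilobase levels by the longest transcript, and removal of each library. Separate 10-week fits by library group were chosen after seeing the data. No column was left unused.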

Additional observations from a re-analysis of the deposited data

Results flagged for a closer look

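In 6 of 60 groups of a member, 1 library stood apart from the others by Dixon's gap, which chance gives in about 5% of groups. Fzd3 was high at 3.59 CPM in villin-PPARD replicate 2 of 25 weeks, against 2.61 to 2.74 in the others, and at 1.60 CPM in villin-PPARD replicate 4 of 55 weeks, against 0.539 to 0.784. Fzd8 was high at 10.9 CPM in villin-PPARD replicate 3 of 55 weeks, against 7.72 to 8.34, and low at 5.63 CPM in WT replicate 2 of 25 weeks, against 6.97 to 7.12. Fzd9 was high at 0.105 CPM in villin-PPARD replicate 5 of 55 weeks, against 0.0285 to 0.0455. Fzd10 was high at 5.15 CPM in WT replicate 3 of 25 weeks, the replacement library, against 2.37 to 2.75.

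The genotype difference also changed between ages by edgeR's interaction test. From 10 to 55 weeks the log2 change was 2.68 for Fzd1, 2.06 for Fzd7, 0.53 for Fzd8, -1.44 for Fzd3, -0.93 for Fzd4 and -0.67 for Fzd5. From 25 to 55 weeks it was 2.57 for Fzd1, 1.87 for Fzd7, 0.63 for Fzd8, -1.35 for Fzd3, -1.01 for Fzd4 and -0.57 for Fzd5. The adjusted p-values ran from 8.42e-12 to 0.0481 in the second set, and Fzd5 at 0.0481 was past the threshold least. The 25-week and 55-week libraries lie in different library groups.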

How the results depend on the processing

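Of 1868 values recomputed under other settings, 1762 kept direction and side of the threshold. The number of members called for genotype at 10 weeks, Fzd10 included, was 5 with only the groups compared, against 3. Between 25 and 10 weeks in villin-PPARD mice it was 1 by DESeq2 and 2 by limma-voom, against 0. Between 55 and 10 weeks in WT mice it was 3 with library size alone and 3 with a library group term, against 5. Leaving out each library in turn gave 3 to 4, 4 to 5 and 6 to 9 members for genotype at 10, 25 and 55 weeks. It gave 0 to 1 and 6 to 8 in villin-PPARD and 0 and 3 to 6 in WT mice for 25 and 55 against 10 weeks, the 3 without WT replicate 1 or 4 of 10 weeks or 2, 3, 4 or 5 of 55 weeks. For the change of the genotype difference it gave 0 from 10 to 25 weeks, 6 to 7 from 10 to 55 weeks and 5 to 6 from 25 to 55 weeks. The directions that turned were mostly of small, uncalled differences. At 10 weeks Fzd4 was -0.0780 without replicates 4 and 5 and -0.0647 within the first library group, Fzd6 was 0.0980 within the second, and Fzd7 was -0.0764 without replicates 4 and 5, -0.0641 within the first library group, and from -0.0550 to 0.113 as each library was left out. At 25 weeks Fzd8 was 0.0254 with library size alone and Fzd7 ranged from -0.00639 (without villin-PPARD replicate 4) to 0.423 as each library was left out. At 55 weeks Fzd5 ranged from -0.00960 (without villin-PPARD replicate 2) to 0.191. Fzd6 between 55 and 10 weeks in villin-PPARD mice was 0.0678 with library size alone. The cause was not tested.

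Replicate numbers were not taken as pairs, since the labels do not give them as such. Correlations of same-numbered deviations ran from -0.14 to 0.23 at 10 weeks, -0.0982 to 0.00185 at 25 weeks and -0.42 to -0.0652 at 55 weeks, which does not settle whether some mice were paired. With the replicate block the counts of members called for genotype at 10, 25 and 55 weeks were 3, 4 and 8. The block removed the calls of Fzd3 at 25 weeks (adjusted p = 0.0611), Fzd3 between 55 and 10 weeks in WT mice (0.0617) and Fzd5 from 25 to 55 weeks (0.0753).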
